A study of Rattus norvegicus with 15 samples.

Results

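The core loop of the circadian clock was followed in the ventral tegmental area, the midbrain region of the dopamine neurons, in 7 ethanol-drinking rats and 8 water-drinking rats of matched age. Each array held the RNA of 1 rat. The 10 genes of the loop are Clock, Npas2, Bmal1, Per1, Per2, Per3, Cry1, Cry2, Nr1d1 and Nr1d2. Every probe set that the array annotation names with exactly 1 of these symbols was taken, which gave 18 of the 31042 probe sets that are not controls. Bmal1 stands under that symbol in the annotation, and 0 probe sets shared a clock symbol with another gene. Of the 18, 14 passed a filter on dim probe sets (mean of all 15 arrays at or above the 40th percentile, a log2 value of 6.94), and every gene kept at least 1. The other 4, listed with their genes below, were not tested.

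The series title names alcohol-preferring (P) rats, bred for high voluntary intake, and loss-of-control drinking. The submitters' design text mentions rat lines selected for high and for low intake, but the labels separate only ethanol from water. The labels call the water rats age-matched but give no age, dose, duration, sex or light cycle. Nor do they state the hour at which each rat was killed, on which the levels of clock transcripts depend, so its part in any difference below was not tested. No array of an ethanol rat 3 is among the 15.

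The clock is a transcriptional loop that runs in most cells. CLOCK or its relative NPAS2 pairs with BMAL1 and, through E-box sequences, switches on the Per, Cry and Nr1d genes. PER and CRY proteins build up and shut that pair off again, while the Nr1d products REV-ERB alpha and REV-ERB beta repress Bmal1, Npas2, Cry1 and Nfil3 through elements they share with the ROR activators. In the midbrain, REV-ERB alpha has been described as a repressor of tyrosine hydroxylase in mice.

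One loop gene passed the test. Nr1d1, which encodes REV-ERB alpha, rose 1.28-fold in ethanol rats (log2 0.35, SE 0.08, limma adjusted p = 0.0477). Its paralogue Nr1d2 and the period gene Per3 had higher means in ethanol rats and the cryptochrome Cry1 had a lower one, but none of these passed. Over the array, 0.929% of the 18625 kept probe sets passed (adjusted p below 0.05), and 0.387% passed with a higher level in ethanol rats, against 1 of the 14 kept clock probe sets. At an unadjusted p below 0.05 the clock count was 5 of 14, or 35.7%, 3 higher and 2 lower in ethanol rats, while the share among all kept probe sets was 12.1%. The median difference of the 14 was -0.0068 log2 units, against 0.0062 for all kept probe sets, and 13 of the 14 differed by less than 0.2 log2 units.

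**Figure D1:**
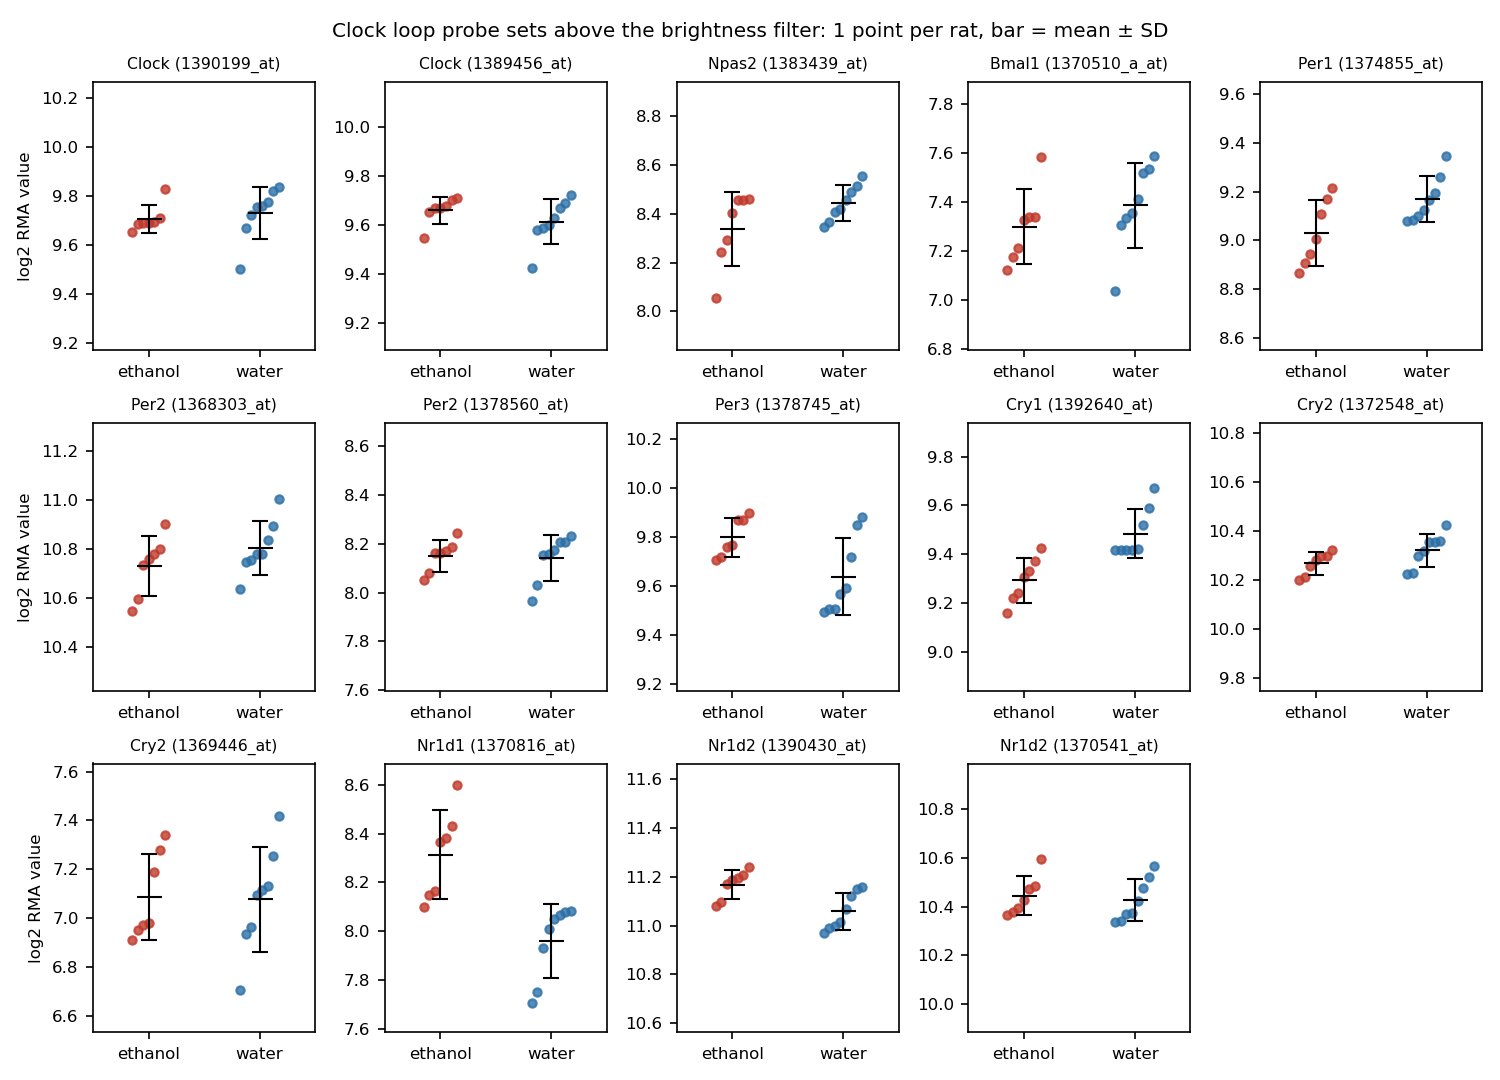
RMA log2 values (vertical axis, each panel spanning the same range of log2 units) of the 14 clock probe sets above the brightness filter, with 1 point per rat sorted by level, ethanol left of water, and a bar for the mean ± SD (n = 7 and 8). The groups are apart in the Nr1d1 panel, where the lowest ethanol rat (8.10) lies just above the highest water rat (8.08), and they overlap in the other 13.

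Nr1d1 was read by 1 probe set, 1370816_at. Its log2 value ran from 8.10 over a median of 8.36 to 8.60 in ethanol rats, against 7.71, 8.03 and 8.08 in water rats. All 7 ethanol rats were above all 8 water rats, though the gap was small, between ethanol rat 1 and water rat 2. Such a complete separation was found in 1 of the 14 clock probe sets, against 0.623% of all kept probe sets. The means were 8.31 ± 0.18 in the 7 ethanol rats, against 7.96 ± 0.15 (SD) in the 8 water rats. The 95% interval of the difference was 0.18 to 0.52 log2 units, or 1.14-fold to 1.44-fold. The two-sided exact permutation test over the arrays gave p = 1.55e-04, not adjusted, the smallest that 7 against 8 arrays allow. This p restates the complete separation and adds no further support.

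The Nr1d1 call stood at the edge of the threshold. Its p ranked 162 among all kept probe sets, of which 173 passed. When 1 array was left out the difference stayed between 0.31 and 0.39 log2 units, but the call was kept in 2 of the 15 fits, those without ethanol rat 1 or ethanol rat 5. In the other 13 the adjusted p rose above the threshold, to at most 0.114. It also ended without any filter on dim probe sets (adjusted p = 0.0643).

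**Figure D2:**
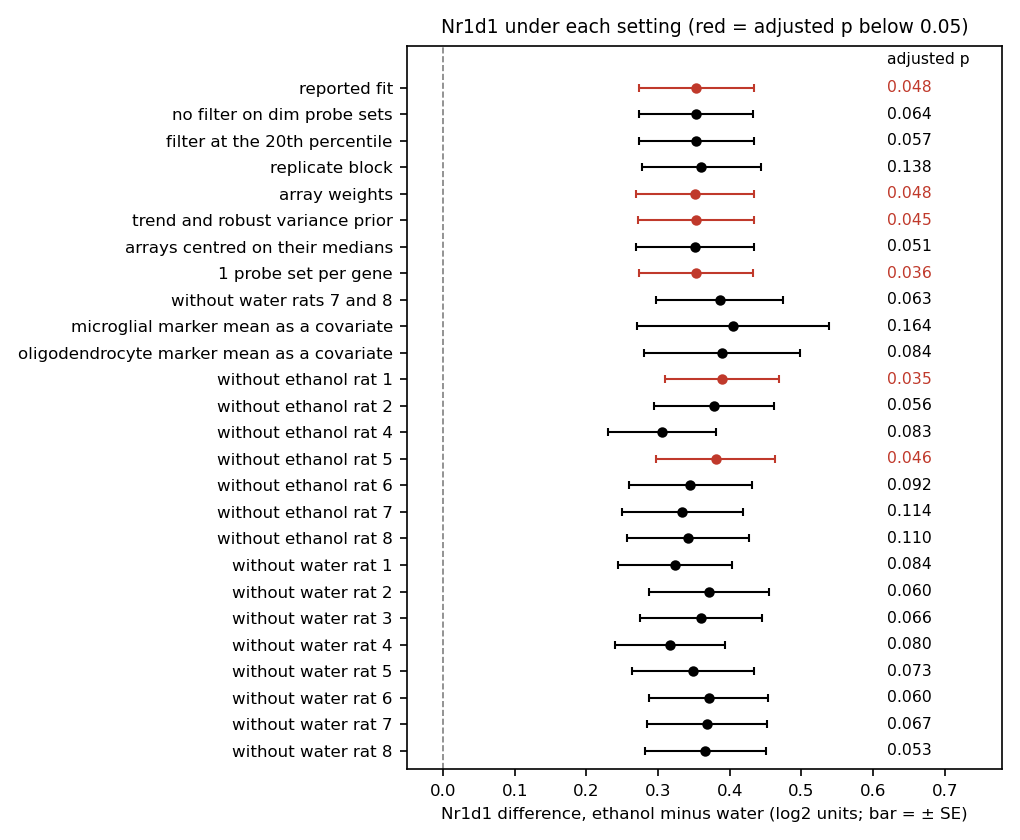
Difference of Nr1d1 between ethanol and water rats (horizontal axis, log2 units, bar = ± SE of limma) in the reported fit, under each alternative setting and with each rat left out, with the adjusted p at the right. Every difference lies above 0, from 0.31 to 0.40, while the adjusted p lies on either side of 0.05.

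Nr1d1 overlaps the thyroid hormone receptor gene Thra by 1061 bases in the RefSeq gene table, and whether the Nr1d1 probes lie in that overlap was not checked. The kept Thra probe sets differed by 0.083 (adjusted p = 0.492) and 0.066 log2 units (adjusted p = 0.637), and neither passed.

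RefSeq (GRCr8) lists 2 starts for Nr1d1, and the E-box CACGTG, the letters bound by CLOCK and BMAL1, stands in the window of 1 of them. That window, chr10:84229405-84229704 on the minus strand, is shown because Nr1d1 is the gene that passed. It covers 250 bases before the start and 50 after it, and the capitals mark the E-box, which begins 191 bases before the start.
Nr1d1: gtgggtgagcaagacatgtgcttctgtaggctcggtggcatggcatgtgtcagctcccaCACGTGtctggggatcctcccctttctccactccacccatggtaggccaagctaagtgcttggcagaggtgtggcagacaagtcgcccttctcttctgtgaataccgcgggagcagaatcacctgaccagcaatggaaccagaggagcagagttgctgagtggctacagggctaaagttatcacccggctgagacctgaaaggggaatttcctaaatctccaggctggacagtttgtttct
The same 6 letters were found in 6.42% of all 33469 RefSeq promoter windows of this length. They stand in 1 of the 11 windows listed for the loop genes. Variant E-box letters and bases outside the windows were not searched, so the other windows are not shown to lack an E-box. These 11 cover 9 of the 10 genes, and Cry1, without a window, was not searched.

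Nr1d2, which encodes REV-ERB beta, differed less. Its probe set 1390430_at ran from 11.08 over a median of 11.19 to 11.24 in ethanol rats, against 10.97, 11.04 and 11.16 in water rats. All 7 ethanol rats were above the water mean, but 2 of them lay within the water range. The difference was 0.11 log2 units (SE 0.04, unadjusted p = 0.0135, adjusted p = 0.261). Probe set 1370541_at differed by 0.019 (adjusted p = 0.899), although both probe sets varied together from rat to rat. The dim probe set 1370540_at averaged 5.24 ± 0.12 in the 7 ethanol rats, against 5.25 ± 0.14 (SD) in the 8 water rats.

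Among the activators, no probe set passed. Bmal1, the partner that both CLOCK and NPAS2 need, ran from 7.12 over a median of 7.33 to 7.58 in ethanol rats, against 7.04, 7.39 and 7.59 in water rats. The groups covered nearly the same range, and the difference was -0.087 log2 units (SE 0.08, adjusted p = 0.691). Its 95% interval of -0.25 to 0.08 leaves room for changes of either sign.

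Npas2, the CLOCK relative that is prominent in the forebrain, ran from 8.06 over 8.40 to 8.46 in ethanol rats, against 8.34, 8.44 and 8.56 in water rats. Ethanol rats 6, 2 and 7 were below every water rat and the other 4 lay within the water range. The difference was -0.11 log2 units (SE 0.06, adjusted p = 0.488).

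Clock itself, a histone acetyltransferase as well as a transcription factor, was read by 4 probe sets, of which 2 passed the filter. Their differences were -0.024 (1390199_at, adjusted p = 0.873) and 0.048 log2 units (1389456_at, adjusted p = 0.679), with SE of 0.05 and 0.04. In both, all 7 ethanol rats lay within the water range. The dim probe sets 1380098_at and 1369168_a_at differed by 0.049 and -0.13 log2 units and were not tested.

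The Bmal1 window is shown because it holds the core letters of the element that ROR and REV-ERB proteins bind. It lies at chr1:176766078-176766377 on the plus strand (GRCr8). The capitals mark TAGGTCA, which begins 16 bases before the start.
Bmal1: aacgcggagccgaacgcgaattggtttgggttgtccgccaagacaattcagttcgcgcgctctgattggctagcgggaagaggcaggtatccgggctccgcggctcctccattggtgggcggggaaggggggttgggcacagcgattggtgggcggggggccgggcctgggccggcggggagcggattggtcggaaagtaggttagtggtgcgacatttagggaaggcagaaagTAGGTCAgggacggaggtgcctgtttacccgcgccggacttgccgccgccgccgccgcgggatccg
TAGGTCA or TGGGTCA, on either strand, was found in 6.6% of all promoter windows and in 1 of the 11 windows of the loop genes.

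**Figure D3:**
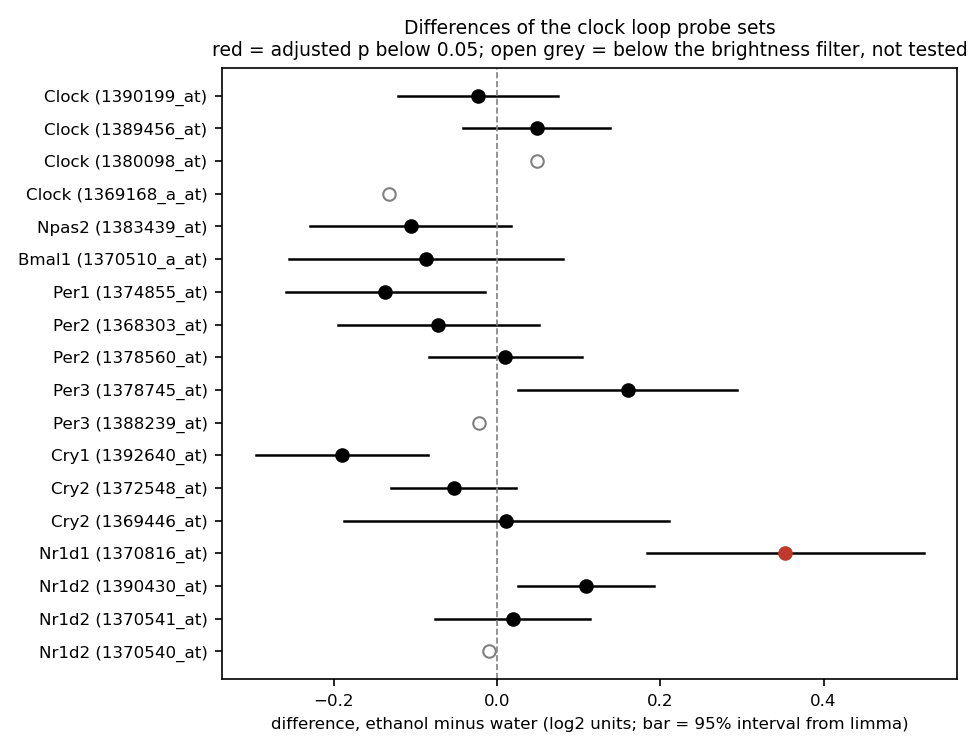
Difference between ethanol and water rats (horizontal axis, log2 units) of all 18 clock probe sets. Bars are 95% intervals from limma, red marks an adjusted p below 0.05, and open grey points are the 4 probe sets below the brightness filter. Nr1d1 stands alone in red at 0.35, and the intervals of Per1, Per3, Cry1 and 1 Nr1d2 probe set also leave out 0 without passing after adjustment.

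The period genes differed in sign. Per3, the least essential of them for the rhythm itself, ran from 9.71 over 9.77 to 9.90 in ethanol rats, against 9.49, 9.58 and 9.88 in water rats (1378745_at). All 7 ethanol rats exceeded the water mean, yet water rats 3, 5 and 7 reached into the ethanol range. The difference was 0.16 log2 units (SE 0.06, unadjusted p = 0.0221, adjusted p = 0.310). The dim Per3 probe set 1388239_at was at -0.023.

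Per1, which responds quickly to light, neuronal activity and corticosteroids, ran the other way. It reached 8.87, 9.01 and 9.21 in ethanol rats (lowest, median and highest), against 9.08, 9.15 and 9.34 in water rats. Of the 7 ethanol rats, 4 were below every water rat and 3 lay within the water range. The difference was -0.14 log2 units (SE 0.06, unadjusted p = 0.0297, adjusted p = 0.343).

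Per2, whose loss shortens and then abolishes behavioural rhythms in mice, was read by 2 kept probe sets. Probe set 1368303_at averaged 10.73 ± 0.12 in the 7 ethanol rats, against 10.80 ± 0.11 (SD) in the 8 water rats, a difference of -0.072 log2 units (adjusted p = 0.646). The other, 1378560_at, differed by 0.010 (adjusted p = 0.947).

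A D-box, the site that the activator DBP and the repressor NFIL3 compete for, stands in 1 of 11 loop gene windows, that of Per2. This window, at chr9:99496944-99497243 on the minus strand (GRCr8), is shown because Nfil3, below, was among the genes that fell. The capitals mark TTATGTAA, which begins 192 bases before the start.
Per2: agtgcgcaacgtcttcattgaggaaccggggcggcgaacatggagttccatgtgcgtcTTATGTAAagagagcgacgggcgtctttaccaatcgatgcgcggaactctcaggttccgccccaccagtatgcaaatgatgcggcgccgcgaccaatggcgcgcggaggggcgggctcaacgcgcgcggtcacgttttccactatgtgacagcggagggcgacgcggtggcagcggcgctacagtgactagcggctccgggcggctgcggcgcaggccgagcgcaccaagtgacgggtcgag
TTATGTAA or TTACGTAA, on either strand, was found in 1.01% of all windows. The cAMP element TGACGTCA stood in 0 of the 11 loop gene windows and in 1.83% of all windows. Its shorter core TGACG stood in the windows of Per2, Per3 and Nr1d2 and in 21.2% of all windows.

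Cry1 came closest to the threshold after Nr1d1. This cryptochrome, a strong repressor of CLOCK and BMAL1, was at 9.16, 9.31 and 9.42 in ethanol rats (lowest, median and highest), against 9.42, 9.42 and 9.67 in water rats. Ethanol rat 1 lay within the water range and the other 6 were below all of them. The means were 9.29 ± 0.09 in the 7 ethanol rats, against 9.48 ± 0.10 (SD) in the 8 water rats. The difference was -0.19 log2 units (SE 0.05), with a 95% interval of -0.30 to -0.08, and missed the threshold (adjusted p = 0.0978; two-sided exact permutation p = 9.32e-04, not adjusted). It ranged from -0.21 to -0.16 log2 units with 1 array left out, and did not pass in any of the 15 fits (adjusted p from 0.0774 to 0.187).

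The Cry1 values carry a further limit. Exactly the same log2 value stands in 4 of the 8 water rats, and what this does to their spread was not tested. Of all kept probe sets, 2.51% had 1 value shared by 4 or more arrays, and Cry1 was the only kept clock probe set among them.

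Cry2, the second cryptochrome, was read by 2 kept probe sets that differed in spread. Probe set 1372548_at averaged 10.27 ± 0.05 in the 7 ethanol rats, against 10.32 ± 0.07 (SD) in the 8 water rats, a difference of -0.053 log2 units (adjusted p = 0.582). The other, 1369446_at, averaged 7.09 ± 0.18 in the 7 ethanol rats, against 7.08 ± 0.21 (SD) in the 8 water rats (log2 0.011, adjusted p = 0.974).

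The spread within groups differed among the loop probe sets, also between both kept probe sets of Cry2. The within-group SD of the Cry2 probe set 1369446_at was at the 89.1th percentile of all kept probe sets, that of Nr1d1 at the 81.5th and that of Bmal1 at the 80.9th. At the narrow end, the other Cry2 probe set, 1372548_at, was at the 8.64th and the Nr1d2 probe set 1390430_at at the 14.9th. By mean level, the wide probe sets stood at the 41.6th, 54.7th and 44.8th percentile of all probe sets that are not controls. The narrow ones were brighter, at the 82.7th and 90.2th. How much of the spread is array noise was not tested. Of the 14 kept clock probe sets, 7 were below the median spread.

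Probe sets of 1 gene did not always follow each other. After the group means were removed, both kept Nr1d2 probe sets correlated over the 15 arrays (Pearson r = 0.82, Spearman rho = 0.79, permutation p = 6.00e-04 and 0.00155, Pearson adjusted p = 0.00240 over 4 such pairs, r = 0.82 without the 2 farthest arrays). The Cry2 pair gave r = 0.47 and rho = 0.49 (permutation p = 0.102 and 0.0718, Pearson adjusted p = 0.156, r = 0.38 without the 2 farthest arrays). The Per2 pair gave r = 0.04 and rho = -0.11 (permutation p = 0.889 and 0.712, adjusted p = 0.889, r = 0.06 without the 2). The kept Clock pair was negative (r = -0.51, rho = -0.46, permutation p = 0.117 and 0.107, adjusted p = 0.156), but r was -0.12 without the 2 farthest arrays. Clock and Per2 values therefore depend on the probe set chosen.

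Among the 45 pairs of loop genes, each gene standing by its brightest probe set, none passed a permutation test within the groups after adjustment over the 45, by Pearson or by Spearman. At an unadjusted permutation p below 0.05 there were 4 pairs. Per2 and Cry1 were closest: rats high in one tended to be high in the other (r = 0.74, permutation p = 0.00254, adjusted p = 0.114). Their rho was 0.67 (permutation p = 0.0106), r was 0.82 among ethanol rats and 0.68 among water rats, and r was 0.65 without ethanol rat 8 and water rat 3. Pairs with Cry1 or Per2 carry further limits. In Cry1, 4 water rats share 1 value, and the other kept Per2 probe set did not follow the one used here (r = 0.04).

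Nr1d1 ran against Per2 (r = -0.54, rho = -0.61, permutation p = 0.0482 and 0.0233, Pearson adjusted p = 0.508). Without ethanol rat 8 and water rat 3, r was -0.71. Nr1d1 also ran against Cry1 (r = -0.56, rho = -0.34, permutation p = 0.0373 and 0.227, Pearson adjusted p = 0.508), but without ethanol rat 1 and water rat 4 that r was -0.24, so the relation rested on them. With Bmal1, its REV-ERB target, Nr1d1 had an r of 0.01 and a rho of 0.09 (permutation p = 0.960 and 0.759, Pearson adjusted p = 0.960, r = -0.19 without ethanol rat 4 and water rat 7). Bmal1 ran against Cry2 over all rats (r = -0.64, rho = -0.63, permutation p = 0.0151 and 0.0151, Pearson adjusted p = 0.340), and r was -0.76 without ethanol rat 4 and water rat 7. That relation was at -0.90 among water rats and at -0.13 among ethanol rats, and the difference between these was not tested.

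**Figure D4:**
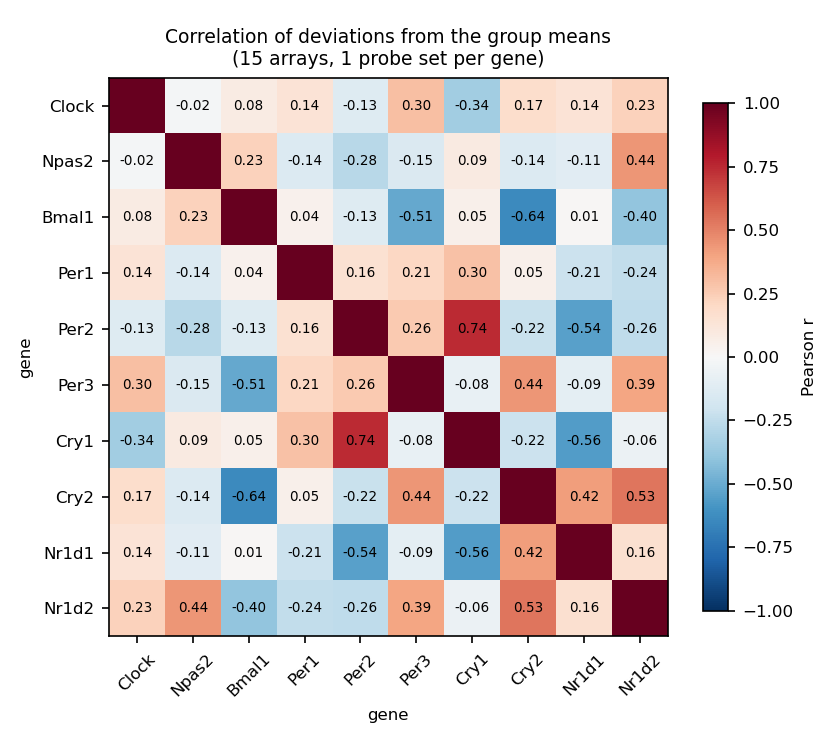
Pearson r between the loop genes over the 15 arrays after the group means were removed, with 1 probe set per gene on both axes and colour running from -1 (blue) to 1 (red). Per2 with Cry1 (0.74) and Bmal1 with Cry2 (-0.64) are the strongest pairs, and most other squares are pale.

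Outside the loop, the profiles most like that of Nr1d1, by Pearson r of deviations from the group means over 15 arrays among 10246 other genes, belonged to Armcx3 (0.84), Rab6a (0.81), Srd5a3 (0.80), Miga2 (0.80) and H1f2 (0.79). The most opposed were Cenpp (-0.84), Brpf1 (-0.82) and Nxf1 (-0.80). These are the extremes of a long ranking and carry no test, and none of the 8 genes passed between ethanol and water rats.

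Genes that tune the loop were mostly level. Of 38 listed modifiers, which include the casein kinases that mark PER proteins, the ubiquitin ligase parts that remove PER and CRY, the ROR activators and cofactors of both arms, 31 had a kept probe set. Of these, 1 fell and 0 rose, against 1.14% of 10256 genes passing in either direction, and their median difference was 0.0081 log2 units. The gene that fell was Usp2, a deubiquitinase that acts on clock proteins and is itself rhythmic. It was at 8.01, 8.24 and 8.55 in ethanol rats (lowest, median and highest), against 8.44, 8.72 and 9.08 in water rats, and all 7 ethanol rats were below the water mean. Its difference was -0.48 log2 units (SE 0.10, adjusted p = 0.0240), a call that held in 10 of the 15 leave-one-out fits. It was lost when ethanol rat 1, 7 or 8, or else water rat 2 or 3, was removed (adjusted p up to 0.0638).

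The modifiers with the next smallest p were Bhlhe41, an E-box repressor (log2 0.15, adjusted p = 0.276), the BMAL1 partner Rack1 (0.070, adjusted p = 0.328), and Wdr5 (0.067, adjusted p = 0.428) and Nono (0.067, adjusted p = 0.452), both partners of PER complexes. The activators Rora and Rorb, which compete with REV-ERB proteins, differed by -0.039 (adjusted p = 0.832) and 0.021 (adjusted p = 0.929). The casein kinases Csnk1d and Csnk1e differed by -0.0042 and -0.0086.

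Of 23 listed clock outputs and genes that respond to bodily cues, 19 had a kept probe set. Of these, 3 fell and 0 rose, against the same 1.14% of all genes, and the median difference was -0.066 log2 units. Like that of the modifiers, this list was chosen with earlier results of these data known, so its share is not a test. Nfil3 is the D-box repressor that REV-ERB proteins keep down. It was at 7.53, 7.86 and 8.03 in ethanol rats (lowest, median and highest), against 8.04, 8.27 and 8.52 in water rats. No ethanol rat reached the water range, and the difference was -0.48 log2 units (SE 0.08, adjusted p = 0.00587). Tsc22d3 (log2 -0.34, adjusted p = 0.00201) and Klf9 (log2 -0.29, adjusted p = 0.0258) are induced by corticosteroids. The Klf9 call ended in 5 of the 15 leave-one-out fits, those lacking ethanol rat 1, 6, 7 or 8, or water rat 2 (adjusted p up to 0.0647), and those of Nfil3 and Tsc22d3 held in all 15.

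Dbp, the D-box activator that CLOCK and BMAL1 drive, was higher than the water mean in all 7 ethanol rats, but its difference of 0.13 log2 units did not pass (adjusted p = 0.134). The other D-box activators Tef and Hlf were at 0.013 and -0.066. The hunger and corticosteroid responsive genes Arrdc2 (log2 -0.32, adjusted p = 0.172), Pdk4 (-0.57, adjusted p = 0.191) and Fkbp5 (-0.26, adjusted p = 0.377) did not pass either, and in each all 7 ethanol rats were below the water mean.

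**Figure D5:**
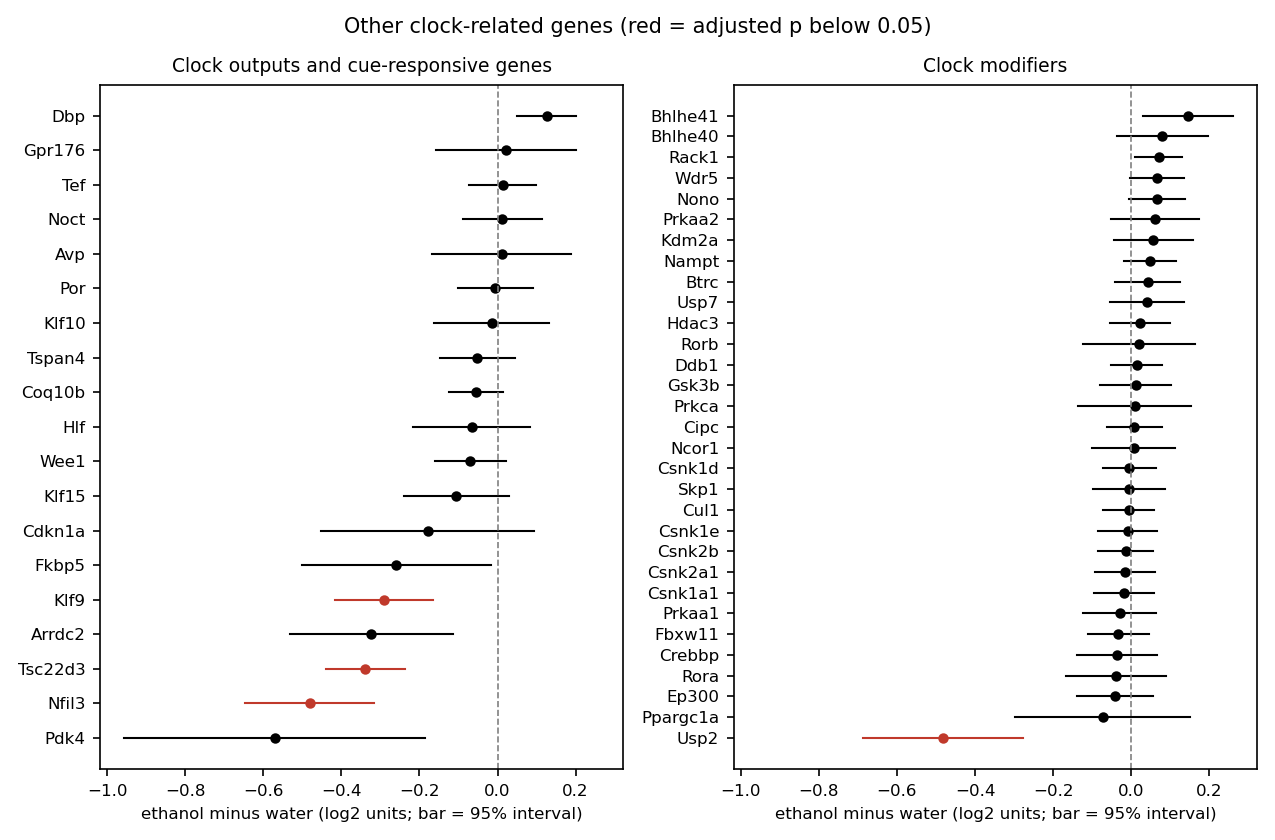
Difference between ethanol and water rats (horizontal axis, log2 units, bars = 95% intervals from limma) of the 19 measured outputs (left) and 31 measured modifiers (right), sorted by size. Nfil3, Tsc22d3, Klf9 and Usp2, in red, are below 0 with an adjusted p under 0.05, and most modifiers sit near 0.

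Markers of other cells moved with the groups, with 1.14% of all genes passing as the background. The marker lists too were chosen with earlier results of these data known. Of 14 measured microglial markers, 5 rose and 14 had higher means in ethanol rats, and their summed linear level was 18115 to 22867 in ethanol rats, against 13629 to 19694 in water rats. Of 11 measured oligodendrocyte markers, 4 fell and 10 had lower means, with sums of 177482 to 206731 in ethanol rats, against 196795 to 244137 in water rats. Such sums weigh the brightest markers most, here Ctss among the microglial markers and Mbp and Mobp among the oligodendrocyte markers. In bulk tissue, fewer cells of a type and less RNA per cell cannot be told apart. With the microglial mean as a covariate the Nr1d1 difference was 0.40 log2 units (adjusted p = 0.164), and with the oligodendrocyte mean 0.39 (adjusted p = 0.0838), so neither fit kept the call. The mean of the microglial markers nearly separated the groups, at 9.30 to 9.60 log2 units in ethanol rats and 8.86 to 9.31 in water rats, and its part in the clock differences cannot be told apart from that of ethanol. With the oligodendrocyte mean Cry1 passed (log2 -0.27, adjusted p = 0.0278).

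Markers of dopamine neurons, which the tissue label implies, were bright. Tyrosine hydroxylase, Th, averaged 14.94 ± 0.22 in the 7 ethanol rats, against 14.80 ± 0.26 (SD) in the 8 water rats. The dopamine transporter Slc6a3 was at 14.66 ± 0.25 in ethanol rats against 14.51 ± 0.25 in water rats, and the vesicular transporter Slc18a2 at 14.39 ± 0.19 in ethanol rats against 14.18 ± 0.26 in water rats (SD, n = 7 and 8). Of 11 measured dopamine markers, 0 passed by limma and 1 had an unadjusted p below 0.05, though all 11 had higher means in ethanol rats. Of the 3 GABA neuron, 1 glutamate neuron, 9 astrocyte and 8 endothelial and mural markers measured, 0 passed by limma, and at an unadjusted p below 0.05 there were 2 astrocyte markers and 0 of the others. Of 5 measured markers of the hypothalamus and its suprachiasmatic nucleus, the seat of the master clock, 0 passed and 0 had an unadjusted p below 0.05. All 5 listed markers of choroid plexus and ependyma were too dim to be tested. The median correlation of an array with the remaining 14 was 0.991 to 0.993 in ethanol rats and 0.988 to 0.992 in water rats, lowest in water rats 7 and 8 (two-sided exact permutation p = 0.0325 between the groups). The excess of 3′ over 5′ control probe sets, which grows as RNA breaks down, was 1.359 to 1.501 log2 units in ethanol rats and 1.384 to 1.601 in water rats (exact permutation p = 0.515). Without water rats 7 and 8, Nr1d1 differed by 0.39 log2 units (adjusted p = 0.0634), which ended its call.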

How the data were processed

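Total RNA (25 ng per sample) was amplified in a pair of cycles, biotin-labelled and hybridised to Affymetrix arrays, per the labels. The authors deposited log2 values from RMA, per the submitters' processing notes, which name no version. RMA equalises the arrays' distributions, so shifts common to all transcripts are removed. The table held 31099 probe sets, 57 of them controls, on 15 arrays. Levels of different genes were not tested against each other, though they were summed for marker lists and ranked for brightness. Nothing in the labels says how the rats were housed or processed in batches, so no batch was tested.

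Probe sets at or above the 40th percentile of mean level were fitted with limma 3.58.1 in R 4.3.3 (ethanol minus water, no covariate, two-sided), with Benjamini-Hochberg adjustment over all 18625 and a threshold of 0.05. The fit was tested on simulated data. Symbols came from GEO's platform annotation, checked by Entrez number against RefSeq (20758 of 20837 found). A gene in a list stands by its brightest kept probe set. Correlations used 100000 permutations within groups. The members, lists and tests were chosen with earlier results of these data known. The naming rule took every loop gene, the called genes and the 4 next by p of the modifier and output lists, the closest profiles, and Th, Slc6a3 and Slc18a2 as tissue checks, and gave other marker lists as counts. The Bmal1 and Per2 promoters, Thra, Rora, Rorb, Csnk1d, Csnk1e, Tef and Hlf were named outside it. The number of arrays limits the precision.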

Additional observations from a re-analysis of the deposited data

Results flagged for a closer look

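In 36 groups of values (18 probe sets in 2 groups of rats), 3 held a rat far from the rest of its group, where chance flags about 1 in 20 groups. Ethanol rat 5 was the highest of its group in the Clock probe set 1390199_at (9.83, the others 9.65 to 9.71) and the lowest in the Clock probe set 1389456_at (9.54, the others 9.65 to 9.71). Water rat 5 was the highest of its group in the dim Nr1d2 probe set 1370540_at (5.58, the others 5.09 to 5.28).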

How the results depend on the processing

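The count of clock probe sets that passed, 1 in the reported fit, was 0 without a filter, with the filter at the 20th percentile, with it at the 60th (which removes Nr1d1), with arrays centred on their medians, without water rats 7 and 8, and with the microglial mean as a covariate; these last 2 settings and the oligodendrocyte covariate, under which Cry1 alone passed, were added after the data were seen. With 1 array left out it was 0 to 1, while the array-wide count of 173 was 100 to 180, that of modifiers 0 to 1, that of outputs 2 to 4, and the median clock difference -0.049 to 0.00014. That median was -0.063 with 1 probe set per gene. At the 60th percentile, which also removes the Usp2 probe set, 0 modifiers passed. Whether the animal numbers pair the rats was not settled, as the correlations between same-numbered rats carry no test. Of 7 same-numbered pairs, 4 had a correlation of deviations over 0.1 (from -0.41 to 0.29). Only 1 of 7 ethanol rats matched its own number best. With that number as a replicate block, which leaves water rat 3 without a partner, 59 probe sets passed, among them 0 clock probe sets, 0 modifiers and 1 output, Nfil3, and Nr1d1 was at 0.36 (adjusted p = 0.138). Near-zero differences changed sign with 1 array left out in Cry2 1369446_at (-0.042 to 0.060), Nr1d2 1370541_at (-0.0058 to 0.039) and Per2 1378560_at (-0.015 to 0.027). With the microglial covariate sign changes gave Bhlhe41 -0.076, Cry2 1372548_at 0.019, Wdr5 -0.016, Clock 1389456_at -0.010 and Nono -0.022, and with the oligodendrocyte covariate Nr1d2 1370541_at -0.021, Per2 1378560_at -0.042 and Clock 1390199_at 0.029. The causes were not tested. Of the other alternatives, array weights, the trended robust prior and 1 probe set per gene kept the Nr1d1 call (adjusted p 0.0357 to 0.0480).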
